A study of Mus musculus with 78 samples.

Results

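The Prame-like genes are 10 mouse genes, taken by name from the expression tables: Pramel1, Pramel3, Pramel4, Pramel5, Pramel6, Pramel7, Pramef8, Pramef12, Pramef17 and Pramef25. All 10 were present among the 54446 genes of the RNA-seq tables and among the 54435 genes of the nascent RNA table. The study asked what happens in mouse embryonic stem cells (mESCs) when TRIM28, an adapter protein of heterochromatin, is removed quickly. In the tagged line, V6.5 mESCs carried a degron (FKBP with the F36V change) and mRuby2 at the N-terminus of Trim28, grown from picked colonies, so that the small molecule dTAG-13 sends the protein to degradation. RNA-seq covered this line in DMSO and after 2, 6, 24 and 96 h of 500 nM dTAG-13, and TT-SLAM-seq, which reads RNA labelled for 15 min with 4-thiouridine, covered it in DMSO and after 2, 6 and 24 h. These cultures were freed of feeder fibroblasts before harvest.

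A second line, here the shERV line, held doxycycline-inducible short hairpin RNAs against the endogenous retrovirus families IAP, MMERVK10C, MMERVK9C and MMETn in addition to the degron. Its total RNA was taken from cultures on feeders that had received DMSO, 24 h of dTAG-13 alone, or doxycycline as well as dTAG-13. The labels name doxycycline (2 µg/mL) as a treatment of the last group only, while their protocol text gives it for all 3 groups, so the contrast is described by its labels here. The paper describes hairpin expression for 24 h before 24 h of TRIM28 degradation in the experiment with total RNA-seq. Wording such as doxycycline added, or a fall with it, therefore compares separate groups and gives no order in time. Untreated parental V6.5 mESCs, whose labels mention feeders, and neural progenitor cells (NPCs) in DMSO completed the set. Each of these 10 RNA-seq groups and 4 TT-SLAM-seq groups had 3 libraries, 42 in all, and 20 ChIP-seq libraries of the tagged line gave peaks of H3K9me3, H3K27Ac, RNAPII and MED23 in DMSO and after 24 h. The study writes of biological replicates for some of these RNA data, but neither it nor the labels says what was kept separate, so p-values measure only the spread between these libraries, which may be technical.

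PRAME proteins are leucine-rich repeat proteins that act as substrate receptors of Cullin 2 ubiquitin ligases, in which Elongin B and Elongin C join the receptor to the cullin. Rodents carry an expanded family, largely as tandem copies, and its members are expressed in the germline and the early embryo. Pramel7 is known for marking UHRF1, the factor that brings DNMT1 to newly replicated DNA, for destruction in naive pluripotent cells, and Pramel6 and Pramel7 are known targets of the LIF and STAT3 pathway. TRIM28 is brought to retroviral and other sequences by KRAB zinc finger proteins and recruits the enzyme that writes H3K9me3.

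In the GRCm38 (mm10) assembly 7 of the 10 genes lie on chromosome 4, all annotated as protein-coding. Pramel1 (ENSMUSG00000041805.3) is at chr4:143394428-143400160 on the plus strand and Pramef8 (ENSMUSG00000046862.14) at chr4:143412426-143421091, also plus. Pramef25 (ENSMUSG00000078511.3, chr4:143948580-143951016), Pramef17 (ENSMUSG00000078509.1, chr4:143991119-143994369) and Pramef12 (ENSMUSG00000028591.11, chr4:144391674-144408464) are on the minus strand. Pramel4 (chr4:144059126-144069327, plus) and Pramel5 (chr4:144270633-144280488, minus) lie between them. Pramel7 (ENSMUSG00000025839.3, chr2:87489087-87497093, minus) and Pramel6 (ENSMUSG00000025838.12, chr2:87506565-87510872, plus) are neighbours on chromosome 2, and Pramel3 (chrX:135302307-135312652, plus) is on the X chromosome.

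RefSeq start sites were matched for 9 of the 10 genes, Pramef8 being the exception. The 250 bases before the start are shown for the genes the results turn on, read 5′ to 3′ along the gene's own strand, in lower case with each CpG in capitals. CpG is the dinucleotide that DNA methylation acts on, and the genes below differ in how many of them their promoters hold.
Pramef12, chr4:144408465-144408714 (GRCm38.p6, minus): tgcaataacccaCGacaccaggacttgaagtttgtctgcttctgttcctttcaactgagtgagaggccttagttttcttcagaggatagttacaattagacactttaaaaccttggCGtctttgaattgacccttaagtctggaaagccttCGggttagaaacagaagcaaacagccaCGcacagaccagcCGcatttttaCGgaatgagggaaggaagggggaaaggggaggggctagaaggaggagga
Pramef25, chr4:143951017-143951266 (minus): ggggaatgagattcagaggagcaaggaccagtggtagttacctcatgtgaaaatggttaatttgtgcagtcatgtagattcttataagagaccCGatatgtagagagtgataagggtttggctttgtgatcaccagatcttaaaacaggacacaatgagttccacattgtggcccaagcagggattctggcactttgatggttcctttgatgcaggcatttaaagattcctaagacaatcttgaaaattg
Pramef17, chr4:143994370-143994619 (minus): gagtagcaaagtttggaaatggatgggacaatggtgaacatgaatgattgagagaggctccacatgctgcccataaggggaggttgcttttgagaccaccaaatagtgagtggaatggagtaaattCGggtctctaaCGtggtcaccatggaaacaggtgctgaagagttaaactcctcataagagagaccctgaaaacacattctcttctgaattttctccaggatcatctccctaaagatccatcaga
Pramel1, chr4:143394191-143394440 (plus): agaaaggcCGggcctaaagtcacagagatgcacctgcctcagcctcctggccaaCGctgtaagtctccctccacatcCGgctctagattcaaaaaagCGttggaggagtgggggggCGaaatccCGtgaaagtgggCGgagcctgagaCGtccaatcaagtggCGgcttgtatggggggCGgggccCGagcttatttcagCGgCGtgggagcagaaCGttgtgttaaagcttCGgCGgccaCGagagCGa
Pramel7, chr2:87492419-87492668 (minus): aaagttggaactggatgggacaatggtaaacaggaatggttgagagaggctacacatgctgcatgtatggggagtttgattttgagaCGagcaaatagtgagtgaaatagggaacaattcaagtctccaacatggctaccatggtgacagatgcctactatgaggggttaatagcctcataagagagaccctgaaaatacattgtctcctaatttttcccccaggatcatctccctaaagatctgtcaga
Pramel6, chr2:87506315-87506564 (plus): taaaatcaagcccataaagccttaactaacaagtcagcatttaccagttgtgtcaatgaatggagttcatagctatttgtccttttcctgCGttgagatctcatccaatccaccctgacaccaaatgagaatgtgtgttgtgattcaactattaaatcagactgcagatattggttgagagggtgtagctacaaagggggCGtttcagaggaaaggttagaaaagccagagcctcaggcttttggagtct

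The promoter of Pramel1 held 18 CpG, that of Pramef12 held 6, those of Pramef17 and Pramel6 held 2 each, and those of Pramef25 and Pramel7 held 1 each. The median over 32841 RefSeq promoters of this length was 6, and 21.7% of them held at least as many as Pramel1. Pramel1 therefore stood alone among the 9 genes above the median. The RefSeq start of Pramel7 lies 4675 bp inside the gene as GENCODE draws it, so the stretch printed for it is not the region before the GENCODE start. Over the 36 pairs of the 9 promoters, identity had a median of 48.9%, with 81.5% between Pramel4 and Pramel5 and 78.7% between Pramel7 and Pramef17. The STAT3 motif TTCNNNGAA was found on either strand in none of the 9 and in 7.02% of all promoters, the octamer ATGCAAAT in none and in 1.60%, and TATAAA in none and in 12.4%. CCAAT was found in 5 of the 9 (Pramel1, Pramel3, Pramel4, Pramel5 and Pramel6) and in 33.9% of all promoters. None of the 4 motifs is contained in another, and a match or its absence says only which letters are in these windows.

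Reads that fit several copies limit what can be said of single genes. Of all 50-base words in the annotated transcripts of a gene, none occurred in another gene for Pramef12, Pramef8, Pramel1 and Pramel6, and 1.43% did for Pramel7. The share was 25.9% for Pramel5, 63.5% for Pramef25, 73.5% for Pramef17, 81.8% for Pramel3 and 87.4% for Pramel4. StringTie divides reads with several positions between them, so the levels of Pramef25 and Pramef17 are uncertain as single-gene values, and each was also summed with its near-identical copies. An antisense gene inside Pramef12, Pramef12os, stood at no more than 0.479 TPM in any DMSO library of the tagged line.

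Expression of the 10 genes in mESCs was very uneven. In the DMSO libraries of the tagged line Pramef12 was at 36.0 ± 1.63 TPM (transcript counts scaled by length and depth, SD, n = 3), Pramef8 at 21.5 ± 1.57 TPM, Pramef25 at 10.2 ± 0.63 TPM, Pramel1 at 4.25 ± 0.05 TPM and Pramef17 at 0.96 ± 0.18 TPM. These 5 levels did not overlap between genes. The other 5 were low: Pramel7 lay between 0.240 and 0.390 TPM and Pramel6 between 0.123 and 0.207 TPM. Over all 30 RNA-seq libraries Pramel5 reached at most 0.230 TPM, Pramel4 0.0610 TPM and Pramel3 0.0436 TPM. The cell label was checked against marker genes: 6 of 6 pluripotency markers reached 1 TPM in every mESC group, with a summed level of 2710 to 2840 TPM in DMSO. In NPCs Pou5f1 and Zfp42 were at 0, but 2 of the 6 reached 1 TPM and the 6 summed to 414 to 431 TPM. The neural markers summed to 3447 to 3513 TPM in NPCs. Relative depth of the RNA-seq libraries spanned 0.288 to 1.50 and the TT-SLAM-seq libraries held between 6480610 and 24259300 counted reads. TRIM28 is removed as protein, so its RNA, which stood at 624 TPM in DMSO and 372 TPM at 24 h, is no check of the labels.

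**Figure D1:**
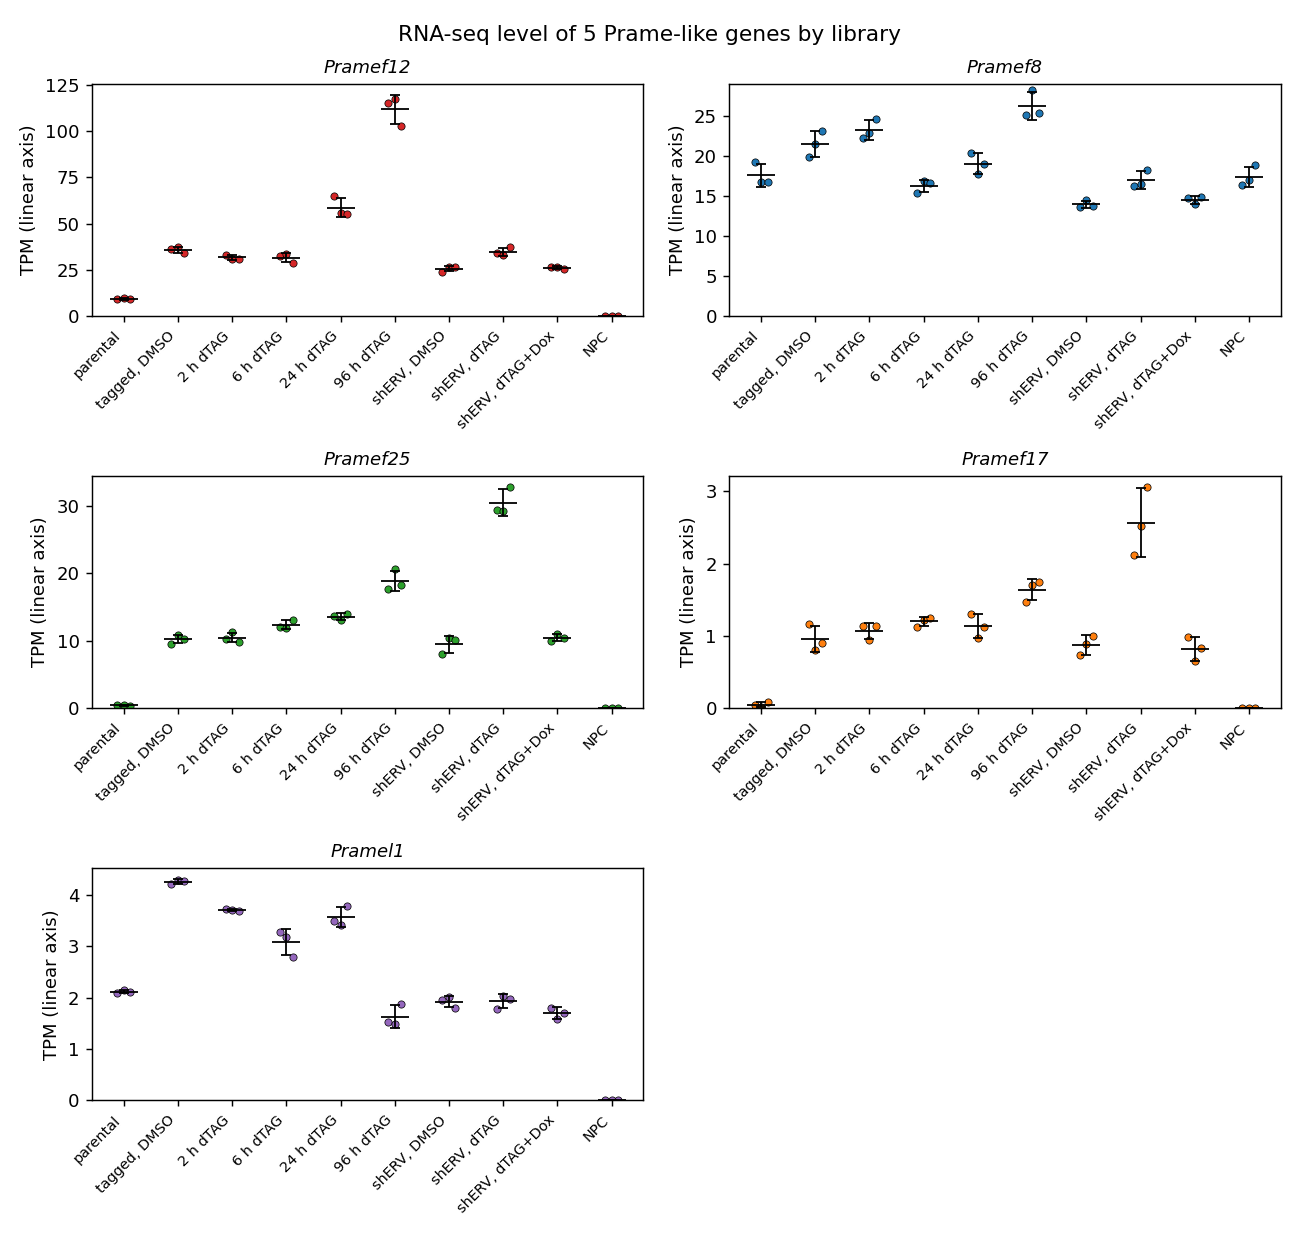
RNA level in TPM (vertical axis, linear) of Pramef12, Pramef8, Pramef25, Pramef17 and Pramel1 in each library (points) of 10 RNA-seq groups (horizontal axis), with mean and SD of 3 libraries. Pramef12 reached 103 to 117 TPM after 96 h of dTAG-13, Pramef25 was highest, at 29.2 to 32.8 TPM, in the shERV line with dTAG-13, and in NPCs Pramef8 alone among the 5 was above 0.

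After TRIM28 degradation Pramef12 rose the most of the 5 genes tested in the time course. Its RNA stood at 36.3, 37.4 and 34.2 TPM in the 3 DMSO libraries, at 33.2, 30.9 and 31.0 TPM after 2 h, at 32.3, 33.6 and 28.8 TPM after 6 h, at 64.7, 56.0 and 55.4 TPM after 24 h, and at 115, 117 and 103 TPM after 96 h. The libraries at 2 and 6 h all lay below those in DMSO, and those at 24 and 96 h all lay above them, with no overlap between 24 and 96 h. Pramef12 is known for a role in spermatogonial stem cells. On the log2(TPM + 0.5) scale, which understates changes of low genes, it rose by 0.70 ± 0.07 (SE, 1.62-fold, limma adjusted p = 1.16e-06) at 24 h and by 1.62 ± 0.07 (3.07-fold, limma adjusted p = 3.54e-11) at 96 h. A gene was called when its adjusted p was under 0.05 and its log2 change exceeded 1 in either direction, which Pramef12 met at 96 h and not at 24 h. Centring each library on its median left 0.41 at 24 h (adjusted p = 0.000201) and 1.34 at 96 h (adjusted p = 3.36e-10).

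Pramel1, whose protein is known from testis, went the other way. Its level was 4.20, 4.29 and 4.27 TPM in DMSO, 3.73, 3.71 and 3.68 TPM at 2 h, 3.27, 3.17 and 2.79 TPM at 6 h, 3.50, 3.41 and 3.78 TPM at 24 h and 1.52, 1.48 and 1.88 TPM at 96 h. Every treated library was below every DMSO library. Pramel1 fell by 0.41 on the log2 scale at 6 h (SE 0.09, limma adjusted p = 0.00306), by 0.23 at 24 h (limma adjusted p = 0.0344) and by 1.16 at 96 h (SE 0.09, limma adjusted p = 1.42e-08), and it was called at 96 h. The small change at 24 h depended on single libraries, since leaving out any of the 3 DMSO libraries, or replicate 1 or 2 at 24 h, gave adjusted p of 0.0631 to 0.101. Over all its alternatives adjusted p ran from 0.000147, with centred libraries (-0.52), to 0.101. Centring took the change at 96 h to -1.44.

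Pramef25 climbed in smaller steps. It stood at 9.59, 10.8 and 10.3 TPM in DMSO, 10.3, 11.3 and 9.88 TPM at 2 h, 12.1, 12.0 and 13.1 TPM at 6 h, 13.7, 13.0 and 14.0 TPM at 24 h and 17.7, 20.6 and 18.3 TPM at 96 h. The groups at 6, 24 and 96 h lay above DMSO, and 6 and 24 h overlapped each other. Pramef25 rose by 0.26 ± 0.07 at 6 h (limma adjusted p = 0.0123), by 0.39 ± 0.07 at 24 h (adjusted p = 0.000226) and by 0.85 ± 0.07 (1.80-fold, adjusted p = 4.21e-08) at 96 h. Centring each library on its median left 0.17 at 6 h (adjusted p = 0.0849), 0.10 at 24 h (adjusted p = 0.233) and 0.57 at 96 h (adjusted p = 4.11e-06). Together with its 7 copies, among them Gm13040, Gm13043, Gm13057 and BC080695, it summed to 51.7 to 56.0 TPM in DMSO, 68.6 to 75.3 TPM at 24 h and 82.4 to 95.0 TPM at 96 h.

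Pramef8 and Pramef17 moved less. Pramef8 held between 15.4 and 28.4 TPM in all 15 libraries of the time course. It fell by 0.39 on the log2 scale at 6 h (SE 0.07, limma adjusted p = 0.000955), with libraries at 15.4, 16.9 and 16.6 TPM against 20.0, 21.6 and 23.1 TPM in DMSO, and these did not overlap. At 96 h it was 0.28 ± 0.07 higher (adjusted p = 0.00180), which came to 0.01 (adjusted p = 0.935) once libraries were centred. Pramef17 went from 0.811 to 1.16 TPM in DMSO to 1.47 to 1.75 TPM at 96 h, a rise of 0.56 ± 0.12 (adjusted p = 0.000665, 0.28 with adjusted p = 0.0403 when centred), while its 24 h change of 0.17 had adjusted p = 0.236 and turned to -0.12 when centred.

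Counted over the 10 genes, 5 passed the filter on low values (1 TPM in at least 3 libraries of the fit) in the time course. Of these, 0 were called at 2, 6 or 24 h, against 0.374%, 0.965% and 12.2% of the 17922 genes tested. At an unadjusted p under 0.05 limma gave 1, 4 and 4 of the 5 at these times, and 5147, 7762 and 12582 of all genes. At 96 h it called 1 gene higher and 1 lower, against 20.3% of all genes higher and 12.4% lower, so calls were common there. The median gene shifted by 0.13 at 24 h and 0.05 at 96 h before centring, and centring moved the share of higher calls among all calls from 83.5% to 49.1% at 24 h and from 62.0% to 44.6% at 96 h. The 24 and 96 h comparisons use the same 3 DMSO libraries. Markers of other cells moved at 96 h as well: 10 fibroblast markers summed to 23.9 to 26.0 TPM in DMSO (Lum at 0 in all 3), 29.6 to 32.9 TPM at 24 h and 320 to 345 TPM at 96 h, and 7 of the 9 tested were called higher (6 when centred). The 7 endoderm markers, none at 0, summed to 15.8 to 20.0 TPM in DMSO, 27.1 to 28.6 TPM at 24 h and 79.8 to 84.8 TPM at 96 h, where 4 of 7 were called higher (Sox17, Gata6, Dab2 and Foxa2). Over the same times the 6 pluripotency markers went from 2710 to 2840 TPM to 1675 to 1758 TPM and then to 257 to 307 TPM. Their part in the changes of the Prame-like genes was not tested, and in bulk samples fewer cells of a type and less RNA per cell cannot be told apart.

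Newly made RNA of Pramef12 rose within 24 h. TT-SLAM-seq gave 0.759, 0.889 and 0.606 FPKM (fragments scaled by gene length and depth) in DMSO and 0.632, 0.587 and 0.537 FPKM after 2 h. It gave 0.934, 0.906 and 1.01 FPKM after 6 h and 2.16, 2.16 and 2.32 FPKM after 24 h. The 2 h libraries overlapped DMSO in range, the 6 h libraries lay just above it, and the 24 h libraries lay far above all others. The change at 24 h was 1.12 ± 0.08 on the log2(FPKM + 0.5) scale (2.18-fold, limma adjusted p = 2.42e-05), from 397 reads in the DMSO group and 1879 at 24 h. The median gene shifted by 0.21 in this comparison, and with libraries centred the change was 0.88 (adjusted p = 0.000114), under the limit of 1. On whole reads recovered from the FPKM values, limma-voom gave 1.25 (adjusted p = 8.77e-07). Over the alternatives that kept all libraries the change ran from 0.88 to 1.46. The 0.5 added to each value is near the DMSO level, so the fold of 2.18 understates the rise in FPKM.

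At 2 h Pramef12 changed by -0.20 ± 0.08 (limma adjusted p = 0.188) and at 6 h by 0.22 ± 0.08 (limma adjusted p = 0.121). Pramef8, the other gene past the filter of 0.5 FPKM in at least 3 of 12 libraries, stood at 4.86, 5.30 and 3.94 FPKM in DMSO, 3.43, 3.19 and 3.68 FPKM at 2 h, 4.60, 5.00 and 3.92 FPKM at 6 h and 5.44, 4.63 and 6.85 FPKM at 24 h. Its 2 h libraries were all below DMSO, with a change of -0.40 ± 0.15 (adjusted p = 0.170), and its other groups overlapped DMSO. Its 24 h change was 0.23 ± 0.15 (adjusted p = 0.253) and turned to -0.01 when centred. Of these 2 genes limma called 0 at 2 and 6 h, against 0.225% and 0.569% of the 13357 genes tested, and voom also called 0. At an unadjusted p under 0.05 limma gave 2 and 1 of them, and 2830 and 3544 of all genes. At 24 h it called 1 gene higher, against 2.49% of all genes, and centring moved the share of higher calls among all calls from 73.3% to 36.9%.

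Pramel1 was under that filter in nascent RNA but was read in every library. It stood at 0.383, 0.429 and 0.337 FPKM in DMSO, 0.171, 0.209 and 0.272 FPKM at 2 h, 0.194, 0.229 and 0.221 FPKM at 6 h and 0.496, 0.416 and 0.458 FPKM at 24 h. Both early groups lay below DMSO without overlap, and the 24 h group overlapped it. An exact permutation test gave p = 0.1 at 2 and 6 h, the smallest that 3 against 3 libraries allow, and 0.2 at 24 h (adjusted p = 0.15, 0.15 and 0.2 over 3 tests). Among genes with a mean of 0.1 to 0.5 FPKM in DMSO, 18.8% lay wholly below DMSO at 2 h and 4.75% at 6 h. These levels rest on 69, 55 and 63 reads in the 3 groups, and 135 at 24 h. Of the other 7 genes, none had more than 5 reads in any group of 3 libraries. Among them Pramef25 had 0 reads in DMSO, though its RNA stood at 10.2 TPM there. Since 63.5% of its 50-base words and 73.5% of those of Pramef17 occur in other genes, few reads do not show absent transcription. Over the 8 near-identical copies, Pramef25 included, nascent RNA summed to 0.0807 to 0.146 FPKM in DMSO, where their RNA-seq levels summed to 51.7 to 56.0 TPM. Per the paper, nascent reads were counted by htseq-count with its nonunique setting at all. The effect of that setting on reads that fit several copies was not tested.

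**Figure D2:**
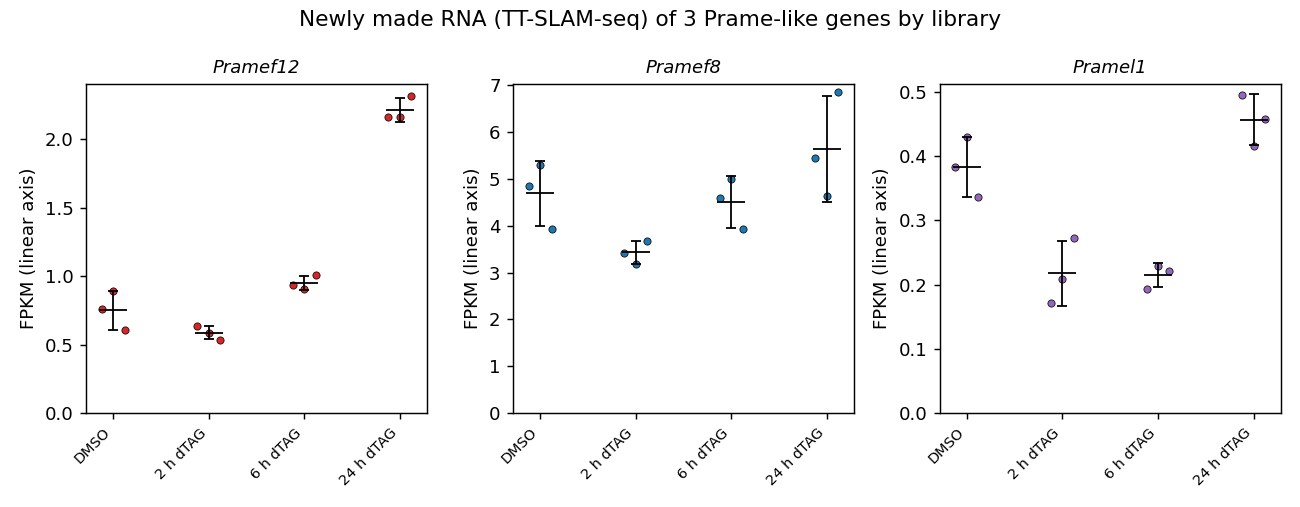
Nascent RNA in FPKM (vertical axis, linear) of Pramef12, Pramef8 and Pramel1 in each TT-SLAM-seq library (points) against hours of dTAG-13, with mean and SD of 3 libraries. Pramef12 sat at 2.16 to 2.32 FPKM at 24 h, above the 0.606 to 0.889 FPKM of DMSO, while Pramef8 at 24 h overlapped its DMSO range.

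Deposited ChIP-seq peaks place Mediator inside Pramef12. In both DMSO libraries its strongest MED23 peak (MED23 is a subunit of Mediator, the complex that links enhancers to RNAPII) was 19.0- and 19.2-fold over background and lay from 3350 to 4740 and from 3113 to 4679 bp into the gene. In both dTAG-13 libraries a peak remained there, of 7.33- and 5.48-fold and 3508 to 4156 and 3520 to 4181 bp into the gene. All 4 peaks share 637 bp, of which the middle 300 overlap no annotated exon. The rest was not checked for exons. This is the site of the strongest Mediator peak at any of the 10 genes. The middle 300 bases hold 10 CpG and are shown on the gene's strand with CpG in capitals.
Pramef12 MED23 core, chr4:144404476-144404775 (GRCm38.p6, minus, 3689 to 3988 bp into the gene): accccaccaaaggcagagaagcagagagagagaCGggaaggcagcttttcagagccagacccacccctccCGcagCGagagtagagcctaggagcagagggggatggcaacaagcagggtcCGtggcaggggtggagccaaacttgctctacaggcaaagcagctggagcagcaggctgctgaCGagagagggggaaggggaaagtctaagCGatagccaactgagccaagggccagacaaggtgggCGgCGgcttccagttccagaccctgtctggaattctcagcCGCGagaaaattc
None of the 4 motifs searched above (CCAAT, TTCNNNGAA, ATGCAAAT and TATAAA) is in these 300 bases. Among 62948 MED23 peak centres of this length, 30.5% held CCAAT, 8.36% TTCNNNGAA, 3.73% ATGCAAAT and 10.1% TATAAA.

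Pramef12 had 8 and 9 MED23 peaks within 5 kb of the gene in the DMSO libraries and 2 in each dTAG-13 library. RNAPII peaks stood at its start (4.95- and 4.83-fold) and between 3475 and 4004 bp in both DMSO libraries, and there were none after dTAG-13. H3K27Ac, a mark of active promoters and enhancers, had 7, 8 and 10 peaks before and 9, 11 and 15 after dTAG-13, with highest folds of 9.25, 9.72 and 8.14 against 9.34, 7.04 and 4.01. These numbers do not count sites, since 1 peak of 5611 bp in DMSO replicate 2 lies where dTAG-13 replicate 3 has several shorter ones. The H3K27Ac lists as a whole held 88050, 117475 and 96407 peaks in DMSO and 30259, 117348 and 45662 after dTAG-13. No H3K9me3 peak was called at Pramef12 in any of 6 libraries. The lost peaks stand beside a loss in the whole lists, since the DMSO libraries held 63045 and 58925 MED23 peaks and the treated ones 15335 and 14551, while for RNAPII the numbers were 19853 and 19194 against 8182 and 7689. Whether Pramef12 lost more than other genes was not tested.

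**Figure D3:**
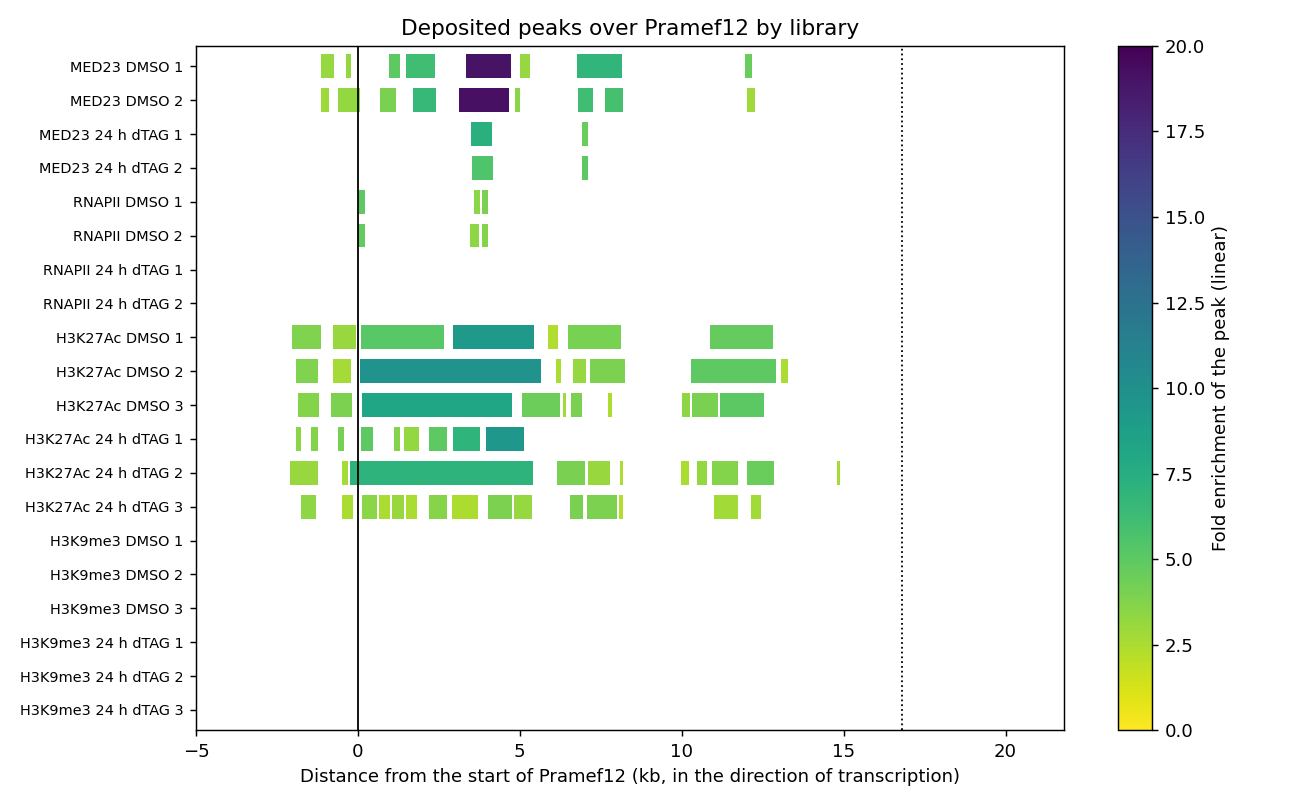
Deposited peaks along Pramef12 by ChIP-seq library (rows), with distance from the gene start in kb on the horizontal axis, the gene end as a dotted line and the caller's fold enrichment as colour from 0 to 20. Strong MED23 peaks of 19.0- and 19.2-fold lie about 3 to 5 kb into the gene in both DMSO libraries, and RNAPII peaks are drawn in the DMSO rows and not in the dTAG-13 rows.

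The peaks differed between the genes. Pramef8 had an H3K27Ac peak within 1 kb of its start in all 6 libraries (9.93-, 10.7- and 7.96-fold in DMSO, 9.88-, 9.98- and 3.03-fold after dTAG-13) and an RNAPII peak there in all 4 (6.75- and 4.07-fold, then 5.37- and 4.48-fold). MED23 stood at the start of Pramef8 in both DMSO libraries (6.93- and 7.92-fold) and in neither dTAG-13 library. Of all gene starts, 32.9% had a MED23 peak within 1 kb in each DMSO library, and 10.3% and 9.27% in the dTAG-13 libraries. Pramef25, Pramef17, Pramel3, Pramel4, Pramel5 and Pramel7 had H3K9me3 peaks within 5 kb of the gene in some libraries. None of them had a peak of the other 3 proteins or marks in any library. As Pramef25, Pramef17, Pramel3 and Pramel4 share much of their transcript sequence with copies, a missing peak there does not show that the protein or mark was absent. How ChIP-seq reads that fit several copies were placed was not tested. The DMSO libraries held 7, 8 and 8 H3K9me3 peaks at Pramef25 and 7, 9 and 3 at Pramef17. The dTAG-13 libraries held 0, 9 and 6 at Pramef25, with 0, 6 and 8 at Pramef17. The highest fold of these peaks was 3.89, at 5094 to 9465 bp from the start of Pramef17, past the end of this gene of 3251 bp. Within 1 kb of that start the highest folds were 2.79, 2.66 and 2.41 in DMSO. They were 2.58 and 2.74 in dTAG-13 replicates 2 and 3. The dTAG-13 library without any held 11474 H3K9me3 peaks in all, against 105690 and 147611 in the other 2. H3K9me3 at the start of Pramel1 was called in 2 of 3 DMSO libraries (3.44- and 2.32-fold) and in 0 of 3 after dTAG-13. Pramel6 had a MED23 peak that reached the 5 kb past its end in both DMSO libraries (3.67- and 5.57-fold) and in neither after dTAG-13. Whether Pramef8 or Pramel6 lost more MED23 than other genes was not tested.

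Cover of the loci by peaks was then compared between libraries, taking the 10000 strongest peaks of each and the 10 genes with 5 kb on each side, which merge to 9 loci. The RNAPII libraries of the dTAG-13 group held fewer peaks than that (8182 and 7689), so all of theirs were taken and set against shortened DMSO lists. H3K9me3 peaks covered 1.30 ± 1.14% of the bases in DMSO and 0.345 ± 0.299% after 24 h (n = 3 each, exact permutation p = 0.4). H3K27Ac covered 3.45 ± 0.94% and 2.53 ± 1.46% (n = 3 each, exact permutation p = 0.4). MED23 covered 0.826 ± 0.069% and 0.472 ± 0.010% (n = 2 each), with no overlap, and RNAPII 0.0734 ± 0.104% and 0.123 ± 0.032% (n = 2 each), for which the exact permutation test gave p = 0.33 and p = 1. The smallest p possible is 0.1 with 3 against 3 libraries and 0.33 with 2 against 2. No direction can be given for H3K9me3 or RNAPII, since both changed sign with the peaks or window chosen.

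A different gene led in the shERV line. Pramef25 stood at 8.05, 10.4 and 10.1 TPM in DMSO, at 29.4, 29.2 and 32.8 TPM with dTAG-13 and at 9.90, 11.0 and 10.5 TPM with dTAG-13 and doxycycline. Its dTAG-13 libraries lay far above both other groups, which overlapped each other. Pramef25 rose by 1.64 ± 0.09 (SE, log2 scale, 3.11-fold, limma adjusted p = 7.27e-08) with dTAG-13. With both agents it was lower by 1.49 than with dTAG-13 alone (SE 0.09, limma adjusted p = 1.81e-07). Its distance from DMSO was then 0.14 ± 0.09 (adjusted p = 0.378). The sum with its 7 copies was 47.2 to 60.3 TPM in DMSO, 146 to 170 TPM with dTAG-13 and 57.5 to 60.7 TPM with both, a change of 1.50 ± 0.08 with dTAG-13.

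Pramef17 was also highest with dTAG-13, at a lower level. It stood at 0.733, 0.889 and 0.998 TPM in DMSO, 2.12, 2.53 and 3.06 TPM with dTAG-13 and 0.984, 0.651 and 0.837 TPM with both. It rose by 1.15 ± 0.15 (2.22-fold, limma adjusted p = 7.10e-05) with dTAG-13. With both agents it was lower by 1.21 than with dTAG-13 alone (SE 0.15, adjusted p = 6.67e-05). It reached the 1 TPM filter only through the dTAG-13 group, so its test had to find a difference and is given as a description. With libraries centred its rise was 0.99, just under the limit.

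Pramef12 and Pramef8 rose less there, and Pramel1 did not pass the test. Pramef12 stood at 24.1, 26.3 and 26.4 TPM in DMSO, 34.3, 32.8 and 37.1 TPM with dTAG-13 and 26.5, 26.8 and 25.3 TPM with both, so its dTAG-13 libraries lay above the other groups. It rose by 0.43 ± 0.06 (1.35-fold, limma adjusted p = 7.51e-05, and 0.27 when centred) with dTAG-13. With both agents it was lower by 0.40 than with dTAG-13 alone (SE 0.06, adjusted p = 0.000178). Pramef8 stood at 13.7 to 14.5 TPM in DMSO, 16.3 to 18.3 TPM with dTAG-13 and 14.0 to 14.9 TPM with both. Its rise with dTAG-13 of 0.28 ± 0.06 (adjusted p = 0.00224) was reduced by centring to 0.11 (adjusted p = 0.0765). Pramel1 held between 1.58 and 2.03 TPM in all 9 libraries, and its change with dTAG-13 was 0.00 ± 0.11 (adjusted p = 0.988).

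Of the 5 genes tested in the shERV line limma called 2 higher with dTAG-13, against 2.38% of the 16166 genes tested, and 2 lower with doxycycline added, against 1.96%. Of these, Pramef17 was tested only through the dTAG-13 group, and leaving it aside gives 1 of 4 (Pramef25) in each comparison. The 2 comparisons share the dTAG-13 libraries, so the fall is not independent of the rise. With both agents against DMSO it called 0 of the 5 and 3 of all genes (0.0186%), while 0 of the 5 and 2911 of all genes had an unadjusted p under 0.05. The median gene moved by 0.14 with dTAG-13, and centring took the share of higher calls among all calls from 62.4% to 41.1%, and from 43.2% to 53.8% with doxycycline added. Fibroblast markers summed to 115 to 131 TPM over these 9 libraries, with none at 0 and 0 of 8 tested called with dTAG-13, and the 6 pluripotency markers summed to 1190 to 1325, 652 to 654 and 1229 to 1263 TPM in the 3 groups. Endoderm markers, none at 0, summed to 17.7 to 20.1, 23.3 to 26.7 and 17.2 to 20.3 TPM, and of 5 tested Sox17 was called higher with dTAG-13 (2.05 ± 0.25, limma adjusted p = 3.04e-05). The part of these cell markers was not tested.

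The 24 h response of the lines was compared in 1 model as the difference between their log2 changes. Pramef25 differed by 1.25 ± 0.13 (limma adjusted p = 9.13e-06), Pramef17 by 0.99 ± 0.21 (adjusted p = 0.00203) and Pramef8 by 0.45 ± 0.10 (adjusted p = 0.00257), each higher in the shERV line. Pramef12 differed by -0.26 ± 0.10 (adjusted p = 0.0395), which centring brought to -0.14 (adjusted p = 0.186), and Pramel1 by 0.23 ± 0.12 (adjusted p = 0.140). Of the 5, limma called 1 higher, against 2.11% of all 17653 genes, with a share of higher calls of 24.2% that became 38.5% when centred. The lines differ in the hairpin construct, the feeders and the kind of RNA sequenced, which cannot be told apart here.

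**Figure D4:**
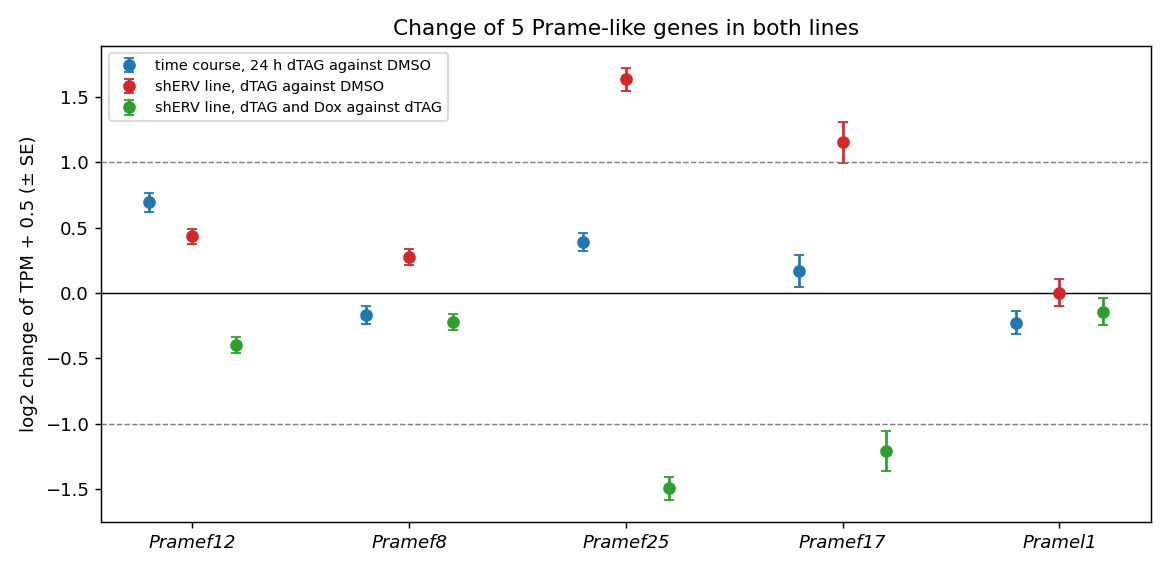
Log2 change (vertical axis, log2(TPM + 0.5) scale, bars are SE) of Pramef12, Pramef8, Pramef25, Pramef17 and Pramel1 for 24 h dTAG-13 in the time course, dTAG-13 in the shERV line, and doxycycline added to dTAG-13 in that line, with dashed lines at 1 and -1. Pramef25 and Pramef17 pass these lines in the shERV line in opposite directions, at 1.64 and -1.49 and at 1.15 and -1.21, and no gene passes them in the 24 h time course.

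Pramel6 and Pramel7 were too low for the model, and both were listed at 0 in nearly all libraries after 24 h or more of dTAG-13 without doxycycline. Pramel7 was at 0.240, 0.331 and 0.390 TPM in DMSO, 0.0826, 0.280 and 0.101 TPM at 2 h, 0.272, 0.509 and 0.109 TPM at 6 h, 0, 0.0261 and 0 TPM at 24 h and 0 TPM in all 3 libraries at 96 h. The shERV line gave 0.421, 0.133 and 0.190 TPM in DMSO, 0 TPM in all 3 dTAG-13 libraries and 0.0773, 0.383 and 0.0828 TPM with doxycycline added. The groups at 24 and 96 h did not overlap DMSO, nor did the dTAG-13 group of the shERV line overlap the others.

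Pramel6, its neighbour, was at 0.185, 0.123 and 0.207 TPM in DMSO, 0.194, 0.130 and 0.510 TPM at 2 h, 0, 0.0601 and 0.167 TPM at 6 h and 0 TPM in all 6 libraries at 24 and 96 h. The shERV line gave 0.195, 0.0845 and 0.221 TPM in DMSO, 0 TPM in all 3 dTAG-13 libraries and 0.396, 0.0518 and 0.280 TPM with doxycycline added. Both genes were thus at 0 in every library at 96 h and in the dTAG-13 group of the shERV line. For each, the exact permutation test of these 4 comparisons gave p = 0.1, the smallest possible with 3 against 3, and adjusted p = 0.25 over 35 tests of untested genes. A value of 0 says only how the gene is listed, and no fold is given against it. Replicate 1 at 24 h had the lowest relative depth of all 30 RNA-seq libraries (0.288), so its 0 for both genes says least.

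Among all genes with a mean of 0.1 to 0.5 TPM in the reference group (4917 in the time course, 5513 and 5463 in the shERV line), 9.84% lay wholly below DMSO at 24 h, 20.4% at 96 h and 9.94% with dTAG-13 in the shERV line, and 11.2% lay wholly above dTAG-13 with doxycycline added. Counting only those above 0 in every reference library (4041 in the time course and 4796 in the shERV line), all 3 treated libraries were at 0 for 1.16% at 24 h, 5.12% at 96 h and 1.23% with dTAG-13 in the shERV line. Pramel6 met this at each of the 3 and Pramel7 at 96 h and in the shERV line. The range of levels was chosen after these 2 genes had been seen. In TT-SLAM-seq neither gene had more than 4 reads in any group, so nascent RNA adds nothing on them.

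**Figure D5:**
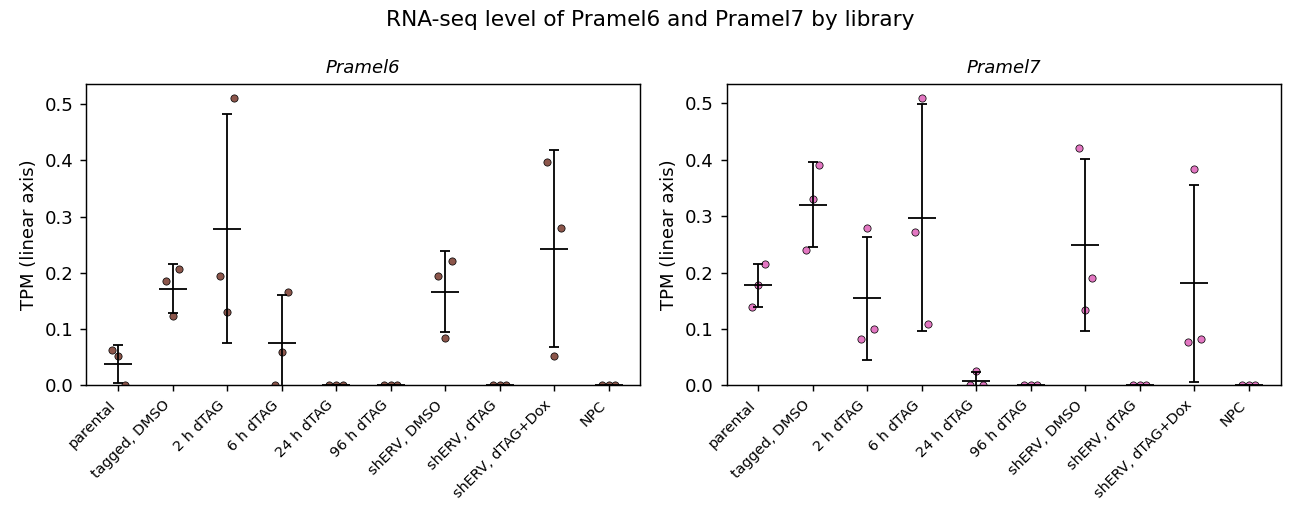
RNA level in TPM (vertical axis, linear, from 0) of Pramel6 and Pramel7 in each library (points) of 10 RNA-seq groups (horizontal axis), with mean and SD of 3 libraries. Both are at 0 in every library at 96 h, in the shERV line with dTAG-13 and in NPCs, and Pramel7 has 0.0261 TPM in 1 of 3 libraries at 24 h.

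Untreated cells of the parental line differed from the tagged line in DMSO. Pramef12 stood at 9.02, 9.95 and 9.41 TPM in parental cells, lower by 1.87 ± 0.06 on the log2 scale (limma adjusted p = 1.74e-08) and without overlap. Pramef25 stood at 0.515, 0.443 and 0.337 TPM, lower by 3.53 ± 0.09 (adjusted p = 3.99e-09), and with its 7 copies at 2.43 to 3.24 TPM against 51.7 to 56.0 TPM. Pramef25 passed the filter only through the tagged line, so a difference had to be found. Pramel1 stood at 2.09, 2.14 and 2.11 TPM, lower by 0.86 ± 0.07 (adjusted p = 3.62e-06), and Pramef17 at 0.0127 to 0.0891 TPM was not tested. Pramel7 stood at 0.138 to 0.215 TPM and Pramel6 at 0 to 0.0638 TPM. Pramef8 stood at 16.8 to 19.2 TPM, with a change of -0.28 ± 0.08 (adjusted p = 0.00882) that centring reduced to -0.09 (adjusted p = 0.292).

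Of 4 genes tested limma called 2 lower in parental cells, against 9.15% of the 17458 genes tested, and 1 of 3 when Pramef25 is left aside. Over all genes 19.7% of calls were higher before and 35.0% after centring. Fibroblast markers summed to 123 to 124 TPM in parental cells, with none at 0, and the pluripotency markers to 3837 to 3860 TPM. The tag, the clone and the feeders cannot be told apart.

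In NPCs only Pramef8 was read among the 10 genes. It stood at 16.4, 17.0 and 18.9 TPM, against 20.0, 21.6 and 23.1 TPM in the tagged mESCs, 0.30 ± 0.08 lower (limma adjusted p = 0.00440). The other 9 genes were listed at 0 in all 3 libraries, so no fold is given. Limma called 3 of the 4 genes tested (Pramef12, Pramef25 and Pramel1) lower, against 20.7% of all genes. Pramef25 passed the filter only through the tagged line, and without it 2 of 3 were called. Over all genes 55.6% of calls were higher before and 40.2% after centring.

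Ordered by level, Pramef12 was highest at 96 h, then at 24 h, and then in DMSO of the tagged line (34.2 to 37.4 TPM) and in the shERV line with dTAG-13 (32.8 to 37.1 TPM), which overlapped. The 2 h and 6 h groups overlapped each other, as did the shERV line in DMSO and with both agents, and parental cells and NPCs closed the order. Pramef25 was highest in the shERV line with dTAG-13, then at 96 h, then at 24 and 6 h, which overlapped. Its groups at 2 h, in DMSO, and in the shERV line in DMSO or with both agents overlapped at 8.05 to 11.3 TPM. Levels across the 2 lines were set side by side without a test.

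The genes whose RNA pattern was most like that of a member were found by Pearson's r of log2(TPM + 0.5) over the 30 libraries, among 19714 genes. For Pramef12 these were St14 (r = 0.994), Cldn6 (0.993), Cnksr1 (0.990), Kcnk6 (0.990) and Gadd45b (0.988), and over the 27 libraries without NPCs the same 5 had r between 0.944 and 0.979. For Pramef25 they were Gm13040, Gm13043 and Gm13057 (each 0.998), BC080695 (0.997) and Tmem92 (0.995), of which all but Tmem92 share 50-base words with it. For Pramef8 they were Dpp3 (0.883), Zscan25 (0.877), Ccdc120 (0.876), Mief2 (0.871) and Hif1an (0.868). The points share groups of 3 libraries, lines and depth, so these values describe the data only.

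The other 41 genes of the Prame family, which are largely unnamed copies, were often called in the shERV line and rarely in the time course. Of these, 18 reached 1 TPM in some library. With dTAG-13 in the shERV line 14 of 17 tested were called higher (median 1.26 against 0.14 over all genes tested, and 12 of 17 with libraries centred). Examples were B020004J07Rik at 1.75 ± 0.12 (limma adjusted p = 5.63e-07) and Gm13078 at 1.71 ± 0.12 (limma adjusted p = 4.23e-07), and the smallest change called was 1.12 for BC061212. With doxycycline added 14 of 17 were called lower (median -1.24 against -0.04, 12 of 17 centred), and 13 of 17 differed between the lines at 24 h (15 of 17 centred). Their summed level in the shERV line was 60.2 ± 5.29 TPM in DMSO and 165 ± 13.3 TPM with dTAG-13 (SD, n = 3). With both agents it was 64.6 ± 1.17 TPM (SD, n = 3). Over all genes tested, 2.38% were called higher with dTAG-13 and 1.96% lower with doxycycline added. For the difference between the lines 2.11% were called higher.

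In the time course limma called 0 of 16 at 2, 6 and 24 h and 1 of 16 at 96 h, B020004J07Rik at 1.42 ± 0.17 (adjusted p = 2.79e-06). Among all genes, 0.374%, 0.965% and 12.2% were called at 2, 6 and 24 h, and 20.3% were called higher at 96 h. The median of the 16 was 0.33 at 6 h, -0.15 at 24 h and 0.44 at 96 h. Over all genes tested it was 0.03, 0.13 and 0.05. In parental cells and in NPCs the same fit called all 15 tested lower, but each of them was tested only through the tagged line, so a difference had to be found. None was past the filter in TT-SLAM-seq. Many of these genes share reads with each other, so their counts are not independent.

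Genes active in the 2-cell embryo, another group known to switch on together in rare mESCs, moved in the same comparisons. With dTAG-13 in the shERV line 14 of 22 tested were called higher (median 1.22, 13 of 22 centred), among them Zscan4b at 1.61 ± 0.08 (limma adjusted p = 3.40e-08), Duxf3 at 1.26 ± 0.11 (adjusted p = 3.39e-06) and Tdpoz3 at 2.65 ± 0.18 (adjusted p = 3.68e-07). With doxycycline added 13 of 22 were called lower, 12 when centred. The shares of all genes in these 2 comparisons were 2.38% higher and 1.96% lower. In the time course 1 of 22 was called higher at 24 h (Tdpoz3 at 1.15 ± 0.15, adjusted p = 7.81e-06) and 3 of 22 at 96 h (Gm4340, Usp17ld and Tdpoz3). Once libraries were centred the calls were 1 lower at 24 h, and 1 in each direction at 96 h. Before centring, 1819 of all 17922 genes were called higher at 24 h and 20.3% at 96 h. In parental cells all 22 were called lower, 15 of them tested only through the tagged line. Of all genes tested 9.15% were called lower there.

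Among genes of the LIF and STAT3 pathway and naive pluripotency, nascent RNA of Socs3, a direct STAT3 target, rose by 1.35 ± 0.12 (limma adjusted p = 0.00277) and that of Gbx2 by 1.18 ± 0.17 (adjusted p = 0.0104) at 2 h, 2 of 17 tested. At 24 h nascent RNA of Nr0b1 fell by 1.84 (adjusted p = 2.11e-05) and that of Klf4 by 1.02 (adjusted p = 0.00470). Of all 13357 genes tested in nascent RNA, 17 were called higher at 2 h and 121 lower at 24 h. In steady RNA 5 of 18 were called lower at 24 h, namely Gbx2, Nr0b1, Klf4, Klf5 and Zfp42, against 360 of all 17922 genes. By 96 h 10 of 18 were lower, while Jak1 and Il6st were higher (1 higher and 10 lower when centred). Of all genes 12.4% were lower and 20.3% higher by then. In the shERV line 9 of 18 were called lower with dTAG-13 (median -0.83), such as Nr0b1, which fell by 3.49, and Esrrb, which fell by 1.45. Once doxycycline was added 9 were called higher. Of all 16166 genes tested there, 232 were lower with dTAG-13 and 241 higher once doxycycline was added.

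Of 14 genes for Cullin 2 ligase subunits, UHRF1 and DNA methylation, 2 were called lower at 24 h, the cofactor Dnmt3l (-1.67 ± 0.05, limma adjusted p = 2.37e-11) and the de novo methyltransferase Dnmt3b (-1.04 ± 0.04, adjusted p = 9.60e-11). At 96 h 6 were lower and 1 higher. Those lower were Tet1, Dnmt3l, Tet2, Dnmt3b, Dnmt3a and Uhrf1, the last at -1.02 ± 0.03 (adjusted p = 1.27e-12), and Tet3 was higher at 1.59 ± 0.05 (adjusted p = 9.29e-13). With dTAG-13 in the shERV line 3 of 14 were lower (Tet2 at -1.32 ± 0.06, Dnmt3l at -1.04 ± 0.06 and Tet1 at -1.03 ± 0.05), and Tet1 and Tet2 were higher once doxycycline was added. Of the ligase subunits Cul2, Elob, Eloc and Rbx1, none was called in the time course or the shERV line. Among all 17922 genes of the time course, 360 were lower at 24 h, and at 96 h 12.4% were lower and 20.3% higher. In the shERV line 232 of 16166 genes were lower with dTAG-13 and 241 higher once doxycycline was added.

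Germline genes were mixed. Of 14 tested at 24 h, Brdt was called higher (1.63 ± 0.17, limma adjusted p = 1.01e-06) and Hormad1 and Rpl10l lower. By 96 h the calls were Brdt higher and 6 genes lower. In the shERV line with dTAG-13 the same 3 genes as at 24 h were called, in the same directions. Of all 17922 genes of the time course, 1819 were called higher and 360 lower at 24 h. At 96 h 20.3% of them were called higher and 12.4% lower. Of all 16166 genes tested in the shERV line, 385 were called higher and 232 lower with dTAG-13. With libraries centred 3 genes instead of 2 were called lower at 24 h, while in the shERV line Brdt lost its call and 2 genes were lower. Pramef12, itself known from the germline, rose at 24 and 96 h.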

How the data were processed

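RNA-seq was measured in 30 libraries and TT-SLAM-seq in 12, with 3 libraries per group. Per the labels, the authors trimmed RNA-seq reads with cutadapt 2.4, aligned them to mm10 with STAR 2.7.5a and deposited StringTie 2.0.6 tables per library. The TPM values in them were made by the authors with StringTie by scaling to transcript length and depth. The coverage column, a signal per base that the authors deposited beside them unscaled by depth, was used only for relative depth. The deposited TT-SLAM-seq FPKM values count reads with T>C conversions scaled by gene length and by depth. For ChIP-seq the authors deposited MACS2 peaks per library, with the fold enrichment (a ratio) and −log10 q, and no pooling of libraries is stated. Per the labels, BWA, SAMtools, GATK 4.1.4.1 and deepTools 3.4.3 were also used.

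The 10 genes and all gene lists were chosen with earlier results of these data known. All 10 are named, as are the called genes of each list and, for the 3 members of highest mean TPM, the 5 genes with the highest Pearson r. Repeated gene identifiers (4 to 9 per table) were summed. Values were tested as log2(value + 0.5) with limma 3.58.1 (trend) in R 4.3.3, with Benjamini-Hochberg adjustment over all genes tested. Genes needed 1 TPM (TT-SLAM-seq 0.5 FPKM) in at least 3 libraries of the fit. Fits covered the time course, the shERV line, the tagged line with parental cells and NPCs, both lines together, and TT-SLAM-seq. Genes under the filter were tested by exact permutation, two-sided. Whole reads were worked out from FPKM and gene length, and 98.3 to 99.4% of values of up to 20 reads were whole within 0.1. The model was tested on simulated data. Alternatives were a pseudocount of 0.1 or 1, no filter or a mean of at least 5, centred libraries, a replicate block, voom on whole reads, and leaving out each library. Figures and tables used Python 3.11.15. Single-cell and Hi-C samples were not analysed here.

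TPM and FPKM are relative within a library, so a change in total RNA per cell cannot be seen in them, and depth bounds low genes most.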

Additional observations from a re-analysis of the deposited data

Results flagged for a closer look

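For 4 of the Prame-like genes the response to 24 h of dTAG-13 was not alike in the shERV line and in the time course, by a test of the difference itself (limma, 12 libraries). Such differences were common, since 51.4% of all 17653 genes tested had an adjusted p under 0.05 in this comparison. Pramef25 differed by 1.25 on the log2 scale, with a rise of 1.64 in the shERV line and 0.39 in the time course. Pramef17 differed by 0.99 (1.15 and 0.17), and Pramef8 by 0.45 (0.28 and -0.17). Pramef12 differed by -0.26, with a rise of 0.43 in the shERV line and 0.70 in the time course, and its adjusted p of 0.0395 became 0.186 once libraries were centred. All 3 dTAG-13 libraries of the shERV line showed a Pramef25 level above its DMSO libraries. The hairpin construct, feeders and kind of RNA differ between the lines, and their parts cannot be told apart.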

How the results depend on the processing

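Of the values that answer a comparison, 177 of 211 stayed the same across alternatives. In TT-SLAM-seq at 24 h the called genes went from 1 to 0 with a pseudocount of 1 and with centred libraries (Pramef12 at 0.88 in both), and a mean of at least 5 FPKM left no member to test. At 96 h they went from 2 to 1 with a mean of at least 5 TPM. In the shERV line with dTAG-13 they went from 2 to 1 with a pseudocount of 1 (Pramef17 at 0.92), a mean of at least 5 TPM, and centred libraries (0.99), and ranged from 1 to 2 with a library left out. Pramef17 fell under the filter there without any one of the 3 dTAG-13 libraries. With doxycycline against dTAG-13 they went from 2 to 1 with a pseudocount of 1 (Pramef17 at -0.96) and a mean of at least 5 TPM, and ranged from 1 to 2 with a library left out, again through the dTAG-13 libraries. In parental cells they went from 2 to 1 with a mean of at least 5 TPM and ranged from 1 to 2 with a library left out, since without any one of the 3 DMSO libraries Pramef25 was not tested. In NPCs they went from 3 to 1 with a mean of at least 5 TPM and ranged from 2 to 3 with a library left out. The difference between lines went from 1 to 2 with a pseudocount of 0.1, with centred libraries, and with near-identical copies summed (chosen after seeing the data), and from 1 to 2 with a library left out. The added gene is Pramef17, at 1.22, 1.11 and 1.10 in these 3 settings and at 1.01 to 1.09 without DMSO replicate 2 or 3, 24 h replicate 1, shERV DMSO replicate 3 or shERV dTAG-13 replicate 1.

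The H3K9me3 difference in cover was -0.957 percentage points and turned positive with all deposited peaks (0.329), genes without flanks (0.269) and a 1 kb window around starts (1.45). That of RNAPII was 0.0497 and turned negative with all peaks (-0.410), with −log10 q of at least 5 (-0.0706) and without DMSO replicate 2 (-0.0237, the lowest of a range up to 0.123). MED23 came to 0 in the start window. The cause of the changes in peak cover was not tested. Replicate numbers are shared by the groups but do not pair the samples, since correlations of same-numbered samples ran from -0.205 to 0.177. With the number as a replicate block the counts of members called were 0, 0 and 1 in TT-SLAM-seq, 0, 0, 0 and 2 in the time course, 2, 2 and 0 in the shERV line, 2 in parental cells, 3 in NPCs and 1 for the difference between lines, the counts without it. Among all genes the block gave 462 calls against 454 in TT-SLAM-seq at 24 h.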
